A study of Mus musculus with 36 samples.

Results

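The gene for the glucocorticoid receptor, Nr3c1, and 8 of its known target genes, Fkbp5, Tsc22d3, Sgk1, Lpin1, Ddit4, Klf9, Errfi1 and Zbtb16, were followed in mouse liver through the day under chronic intermittent hypoxia. They were chosen by name, as the rows of the expression tables that carry one of these 9 symbols, out of 24066 symbols listed on 1 row. All 9 passed the filter on low values, a mean of at least 0.1 FPKM over all libraries, as did 13215 genes in total. FPKM is a fragment count scaled to transcript length and to library size, so that levels of different genes can be set side by side.

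The livers came from wild-type male C57BL/6JRj mice, 16 weeks old, housed 5 per cage with free access to chow. The intermittent hypoxia group (IH) breathed air that cycled 60 times per hour down to 5% oxygen, from ZT0 (lights on) to ZT8, each day for 4 weeks, and the control group received air-to-air cycles of the same kind. Polyadenylated RNA was sequenced from 3 mice per condition at ZT0, ZT4, ZT8, ZT12, ZT16 and ZT20, which gave 36 libraries, 18 per condition. Each library came from a different animal, and the p-values measure the spread between these mice.

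Glucocorticoids are adrenal steroids whose blood level rises each day before the active phase, which in mice is the night. The receptor waits in the cytoplasm in a complex with HSP90 and its cochaperones, moves to the nucleus when it binds hormone, and switches genes on or off from DNA elements made of an inverted repeat. In liver it is known for driving gluconeogenesis and for passing time-of-day information to metabolic genes, and the 8 target genes are among those that respond to it in many tissues.

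Markers of the labelled tissue were present, with hepatocyte markers summing to between 41044 and 66998 FPKM in control and between 42430 and 58683 FPKM in IH. The adrenal genes Cyp11b1 and Cyp11b2 were listed at 0 in every library. At ZT4 and ZT8, the hours used below for the comparison within the exposure window, the hepatocyte sum lay between 53415 and 58683 FPKM in IH and between 41044 and 53149 FPKM in control, without overlap, and 1 of its 6 genes was called higher. None of the genes marking Kupffer cells, endothelium, stellate cells, cholangiocytes, lymphocytes and neutrophils or red cells was called at these hours. The part of these marker levels in the results was not tested. In bulk tissue, fewer cells of a type and less RNA per cell cannot be told apart. One library stood apart: in control ZT12 replicate 2 the FPKM summed to 808274, against 561964 to 626371 in the other 35. That library, control ZT16 replicate 3 and IH ZT0 replicate 2 held the acute phase gene Saa1 above 10000 FPKM. Without these 3 libraries the Fkbp5 difference over all time points, described below, was 0.40 (limma adjusted p = 0.116), and single time points gave 0.44 for Fkbp5 at ZT12, -0.31 for Fkbp5 and -0.37 for Sgk1 at ZT16 and 1.12 for Lpin1 at ZT0, none of them called. For the rhythms described below, leaving them out kept the calls of Fkbp5, Lpin1 and Ddit4 in both conditions and of Tsc22d3 in control, and changed those of Tsc22d3 in IH and Klf9 in control, given with those genes.

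In the mm10 assembly with GENCODE vM21 gene models, Errfi1 spans chr4:150853919-150868892 on the plus strand, Zbtb16 chr9:48654297-48836222 on the minus strand, Sgk1 chr10:21882184-21999903 on the plus strand and Ddit4 chr10:59949669-59951834 on the minus strand. Lpin1 spans chr12:16535669-16610966 (minus), Fkbp5 chr17:28399094-28517527 (minus), Klf9 chr19:23141226-23168134 (plus) and Tsc22d3 chrX:140539528-140600659 (minus). The 250 bases upstream of each RefSeq transcription start (GRCm38.p6, the same assembly) were searched on both strands for 4 motifs. Promoter windows were found for 7 of the 9 genes, 15 windows in all, and not for Nr3c1 and Zbtb16. The palindromic glucocorticoid response element, GNACA and TGTNC set 3 bases apart, was in 1 of the 15 windows, at Sgk1, against 0.387% of 32851 windows of the same length. The E-box CACGTG, the element of the CLOCK-BMAL1 complex, was in 2 windows, at Fkbp5 and in the same Sgk1 window, against 6.02% of all. The cAMP response element TGACGTCA was in 1 window, at Errfi1, against 1.55%, and the D-box TTATGTAA was in none, against 0.819%. Both windows with an E-box, of which the Sgk1 window also holds the response element, are printed 5′ to 3′ on the strand of the gene, with the matched motifs in capitals. The Fkbp5 window is chr17:28486150-28486399 on the minus strand, with the E-box beginning at base -169 from the start. The Sgk1 window is chr10:21993640-21993889 on the plus strand, with the E-box beginning at base -246 and the response element at base -188. Both windows and the motifs were chosen after the matches had been seen, and a match is a description of the letters, not of binding.
Fkbp5: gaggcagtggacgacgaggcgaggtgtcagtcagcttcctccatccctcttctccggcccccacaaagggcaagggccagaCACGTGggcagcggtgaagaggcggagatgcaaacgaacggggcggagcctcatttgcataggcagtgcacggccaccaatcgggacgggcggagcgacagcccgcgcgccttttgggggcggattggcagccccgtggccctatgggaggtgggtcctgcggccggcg
Sgk1: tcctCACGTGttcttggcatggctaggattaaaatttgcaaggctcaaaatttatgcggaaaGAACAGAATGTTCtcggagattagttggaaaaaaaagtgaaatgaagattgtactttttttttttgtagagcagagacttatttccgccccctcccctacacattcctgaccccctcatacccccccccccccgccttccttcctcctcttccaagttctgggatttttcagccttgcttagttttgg

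The genes differed widely in level. Averaged over the 36 libraries, Errfi1 was highest at 342 ± 63.9 FPKM (SD, n = 36), then Tsc22d3 at 55.7 ± 28.8, Lpin1 at 22.6 ± 20.8, Klf9 at 15.5 ± 5.06, Fkbp5 at 9.85 ± 6.16, Nr3c1 at 7.02 ± 0.904, Sgk1 at 6.01 ± 2.78, Ddit4 at 5.45 ± 2.92 and Zbtb16 at 1.49 ± 0.912 FPKM. From Tsc22d3 down to Ddit4 the ranges of mean ± 1 SD of neighbours in this order overlapped. The ranges of Errfi1 and Tsc22d3 did not overlap, nor did those of Ddit4 and Zbtb16. The SD spans all time points and both conditions, and differences in level between genes were not tested. The receptor had the narrowest spread for its level.

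**Figure D1:**
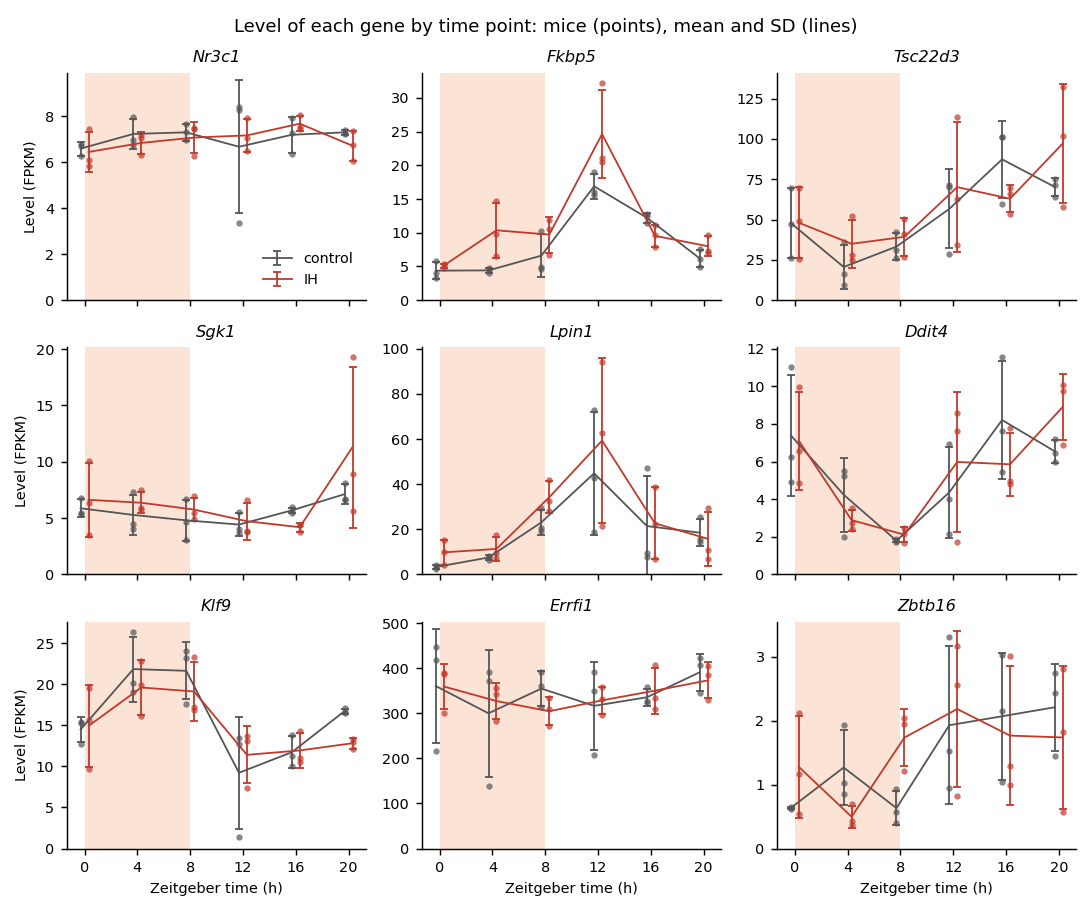
Level in FPKM (linear axis) of each of the 9 genes against zeitgeber time in hours, with 1 point per mouse and lines through the means with SD bars (n = 3 mice per condition and time point). Fkbp5 at ZT4 lies between 6.57 and 14.7 FPKM in IH and between 4.06 and 4.7 FPKM in control, while Nr3c1 stays between 5.83 and 8.4 FPKM apart from 1 control mouse at ZT12, at 3.34 FPKM.

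The first question was whether IH changed the level of the receptor gene. Nr3c1 spans chr18:39410545-39519421 on the minus strand (mm10). It was measured in IH at 6.09, 5.83 and 7.43 FPKM at ZT0, 7.04, 7.19 and 6.3 at ZT4, 7.45, 7.5 and 6.29 at ZT8, 7.95, 6.49 and 7.07 at ZT12, 7.45, 7.56 and 8.04 at ZT16, and 7.37, 6.74 and 6.06 FPKM at ZT20. In control it was at 6.82, 6.72 and 6.25 FPKM at ZT0, 6.76, 7.97 and 6.97 at ZT4, 6.95, 7.66 and 7.3 at ZT8, 8.29, 3.34 and 8.4 at ZT12, 7.94, 7.29 and 6.36 at ZT16, and 7.26, 7.42 and 7.23 FPKM at ZT20. The conditions overlapped at all 6 time points, and the lowest value, 3.34 FPKM, was that of control ZT12 replicate 2. On the log2(FPKM + 1) scale, IH minus control over all time points was 0.00 (95% interval -0.13 to 0.13, 18 mice per condition, limma with Benjamini-Hochberg adjusted p = 0.998). No 24-h rhythm was called in either condition (limma, n = 18 libraries each, P = 0.956 in control and 0.124 in IH), and the highest group mean was 1.11 times the lowest in control and 1.19 times in IH. The control value depended on the libraries used: without those of high Saa1 the limma P was 0.0148, still above the threshold of 0.01. Without 1 library it lay between 0.0837 and 0.972. Transcript level does not measure the receptor protein, its hormone or its place in the cell.

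Among the 9 genes, Fkbp5 was the one called higher in IH. Fkbp5 encodes the immunophilin FKBP51, a cochaperone that lowers the affinity of the receptor for hormone and is itself induced by it, closing a feedback loop. At ZT4 it was at 9.79, 6.57 and 14.7 FPKM in IH and at 4.7, 4.06 and 4.5 FPKM in control, and at ZT8 at 6.74, 11.8 and 10.6 FPKM in IH and at 4.85, 10.3 and 4.65 FPKM in control. All 3 IH mice lay above all 3 control mice at ZT4, whereas at ZT8 1 control mouse lay among the IH mice. The group means at ZT4 were 10.4 ± 4.11 FPKM in IH and 4.42 ± 0.327 FPKM in control (SD, n = 3 each), a ratio of 2.35.

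The daily maximum of Fkbp5 came at ZT12, the start of the night. It reached 21.2, 20.6 and 32.2 FPKM in IH against 16.0, 15.6 and 19.0 FPKM in control at that time. At ZT16 it was at 9.73, 11.1 and 7.84 FPKM in IH and at 11.4, 12.6 and 12.7 FPKM in control. Thus every IH mouse lay above the controls at ZT12 and below them at ZT16. At ZT20 the values were 7.27, 9.7 and 7.05 FPKM in IH and 4.97, 6.05 and 7.57 FPKM in control, and at ZT0 4.8, 5.32 and 5.25 FPKM in IH and 5.8, 3.99 and 3.34 FPKM in control, with overlap at both times.

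IH minus control for Fkbp5 was 1.01 at ZT4 on the log2(FPKM + 1) scale (SE 0.24, 95% interval 0.50 to 1.51, limma adjusted p = 0.0396) and 0.77 over ZT4 and ZT8 together (SE 0.22, interval 0.30 to 1.25, 6 mice per condition, limma adjusted p = 0.0495). At the other time points it was 0.21 at ZT0, 0.54 at ZT8, 0.49 at ZT12, -0.34 at ZT16 and 0.33 at ZT20, and the lowest limma adjusted p among these 5 was 0.210. Over all time points the difference was 0.37 (interval 0.14 to 0.61, n = 36 libraries, P = 0.00288, limma adjusted p = 0.180). The differences were not shown to vary between time points (condition by time point interaction, n = 36 libraries, P = 0.0195, limma adjusted p = 0.260). The call over ZT4 and ZT8 sat at its threshold: it was lost in 9 of 13 other ways of processing and in 10 of 12 fits that left out 1 library, all but those without IH ZT8 replicate 1 or control ZT8 replicate 2, with differences from 0.54 to 1.01. The ZT4 call was lost in 3 of 10 other ways of processing, and without IH ZT4 replicate 1 or 3 or any 1 of the ZT4 controls, where the difference lay between 0.74 and 1.04, and the direction held throughout.

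**Figure D2:**
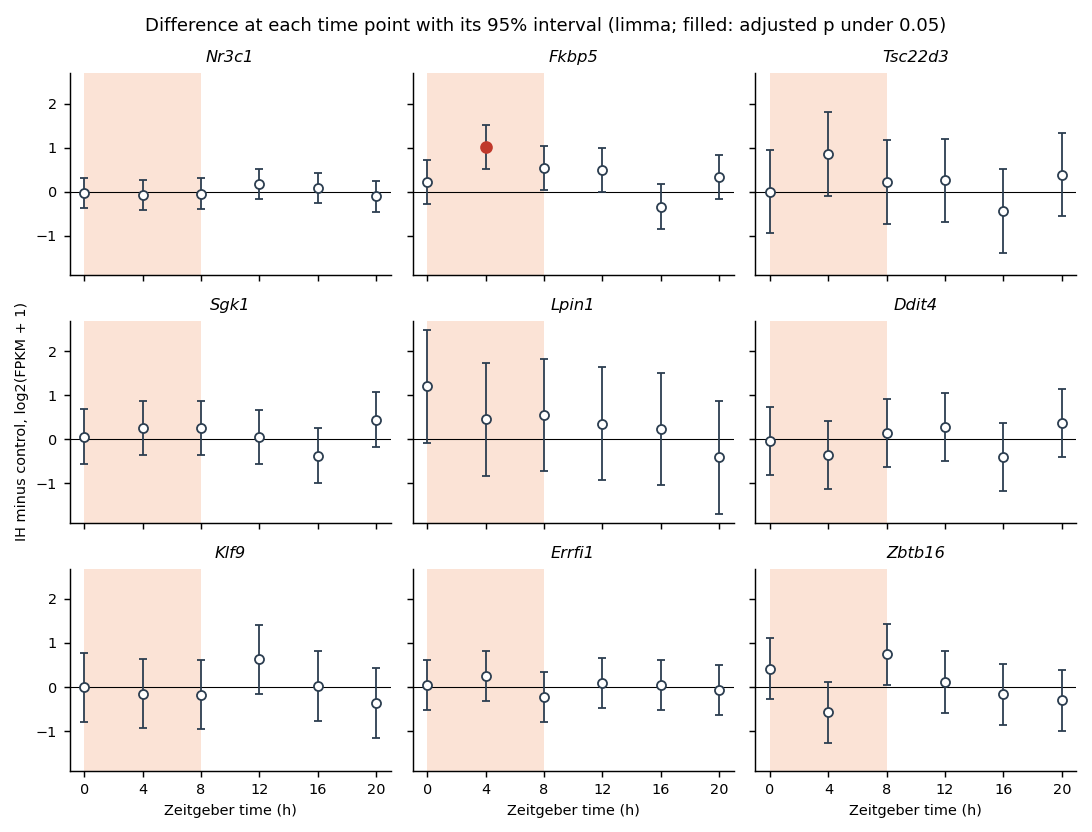
IH minus control on the log2(FPKM + 1) scale (linear axis of log values) at each zeitgeber time for each of the 9 genes, with the 95% interval from limma, filled where the adjusted p was under 0.05. The single filled point is Fkbp5 at ZT4, at 1.01 with an interval of 0.50 to 1.51.

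For the 9 genes as a set, 1 was called higher over ZT4 and ZT8 (Fkbp5), none lower and 8 were not called, beside 7.98% of all genes tested called in either direction 6.05% called higher and 1.93% lower. At a P under 0.05 without adjustment the same comparison held 2 of the 9, Fkbp5 and Lpin1, beside 27.1% of all genes. The share of the 9 was thus near, or below, that of genes at large. Over all time points 0 of 9 were called by limma beside 0.356% of all genes in either direction (0.303% higher and 0.053% lower), and 1 of 9 (Fkbp5) had an unadjusted P under 0.05 beside 10.8%. Taken time point by time point, 1 of 9 was called at ZT4 and 0 at the others, beside 1.16% of all genes at ZT4 (0.885% higher), 0.772% at ZT12, 0.00757% at ZT8 and at ZT16 and 0% at ZT0 and ZT20. Without adjustment limma gave a P under 0.05 for 1 of 9 at ZT4 (beside 16.4%), for 2 of 9 at ZT8 (Fkbp5 and Zbtb16, beside 4.74%), and for 0 at ZT0 (beside 7.57%), ZT12 (24.6%), ZT16 (3.3%) and ZT20 (4.74%). The median difference of all genes was 0.04 over ZT4 and ZT8 and 0.03 over all time points.

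Groups that do not overlap were also counted. IH lay wholly above control for 1 of 9 genes at ZT4 (Fkbp5), where 26.7% of all genes did so, for 1 at ZT8 (Zbtb16, beside 11%) and for 1 at ZT12 (Fkbp5, beside 6.34%), and for 0 at ZT0 (4.59%), ZT16 (10%) and ZT20 (11.8%). IH lay wholly below control for 1 at ZT4 (Zbtb16, beside 7.79%), 2 at ZT16 (Fkbp5 and Sgk1, beside 3.84%) 1 at ZT20 (Klf9, beside 4.18%) and 0 at ZT0 (6.21%), ZT8 (7.16%) and ZT12 (6.74%).

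Tsc22d3 encodes GILZ, the glucocorticoid-induced leucine zipper, which carries much of the anti-inflammatory action of the hormone. In IH it was at 25.6, 48.8 and 69.6 FPKM at ZT0, 28.0, 24.7 and 52.1 at ZT4, 26.8, 40.9 and 50.1 at ZT8, 34.1, 62.5 and 114 at ZT12, 53.2, 66.1 and 69.3 at ZT16, and 58.0, 132 and 102 FPKM at ZT20. In control it was at 47.4, 69.8 and 26.1 FPKM at ZT0, 16.1, 9.45 and 36.2 at ZT4, 26.2, 30.9 and 42.5 at ZT8, 28.3, 71.2 and 70.1 at ZT12, 101, 101 and 59.8 at ZT16, and 63.8, 71.5 and 75.2 FPKM at ZT20. It was low in the light phase and high in the dark phase in both conditions, and mice of one group differed widely in level, with overlap between conditions at every time point. IH minus control was 0.54 over ZT4 and ZT8 (interval -0.12 to 1.20, limma adjusted p = 0.272) and 0.86 at ZT4 (limma adjusted p = 0.359), neither of which passed the test.

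Sgk1 encodes a kinase that acts on ion channels and on insulin signalling and answers to both corticosteroid receptors. Its group means were highest at ZT20 and next highest at ZT0 in both conditions. Sgk1 was at 5.67, 19.3 and 8.9 FPKM in IH at ZT20, 3.46, 10.0 and 6.37 in IH at ZT0, 6.58, 6.66 and 8.13 in control at ZT20 and 5.34, 6.81 and 5.46 FPKM in control at ZT0. One IH mouse at ZT20 held 19.3 FPKM, above every control mouse of the series. At ZT16 Sgk1 was at 3.74, 4.39 and 4.43 FPKM in IH and at 5.95, 5.44 and 5.66 FPKM in control, so that the groups did not overlap, but the difference of -0.37 did not pass the test. At ZT4, ZT8 and ZT12 its values lay between 3.74 and 7.45 FPKM in IH and between 3.04 and 7.35 FPKM in control, and IH minus control over ZT4 and ZT8 was 0.26 (limma adjusted p = 0.320).

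Lpin1 encodes lipin 1, a phosphatidate phosphatase of triglyceride synthesis that also acts as a coactivator of genes of fatty acid oxidation. It had the widest daily range of the 9 genes. In IH it was at 4.08, 9.79 and 15.4 FPKM at ZT0, 7.04, 9.39 and 17.4 at ZT4, 32.5, 28.2 and 41.9 at ZT8, 62.6, 21.4 and 94.1 at ZT12, 6.8, 38.7 and 22.4 at ZT16, and 7.01, 10.8 and 29.6 FPKM at ZT20. In control it was at 3.17, 2.42 and 4.15 FPKM at ZT0, 8.2, 6.33 and 7.87 at ZT4, 19.4, 29.4 and 20.4 at ZT8, 42.5, 18.8 and 73.1 at ZT12, 7.66, 9.63 and 46.9 at ZT16, and 15.8, 14.4 and 25.2 FPKM at ZT20. The highest group mean was 13.8 times the lowest in control and 6.08 times in IH, with the lowest mean at ZT0 and the highest at ZT12 in both. At ZT0 the lowest IH mouse, at 4.08 FPKM, lay just below the highest control mouse, at 4.15 FPKM. IH minus control was 1.20 at ZT0 (interval -0.07 to 2.48, limma adjusted p = 0.692), 0.50 over ZT4 and ZT8 (interval 0.11 to 0.90, limma adjusted p = 0.105) and 0.40 over all time points (limma adjusted p = 0.563), so Lpin1 was not called in any of these comparisons.

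Ddit4 encodes REDD1, an inhibitor of the growth kinase complex mTORC1 that is induced by glucocorticoids and, as background, also by low oxygen. During the exposure window it was at 3.51, 2.41 and 2.73 FPKM at ZT4 and 2.15, 2.49 and 1.69 FPKM at ZT8 in IH, and at 5.25, 1.96 and 5.49 FPKM at ZT4 and 1.77, 1.72 and 1.88 FPKM at ZT8 in control. In the late night, at ZT20, it was at 6.9, 9.78 and 10.1 FPKM in IH and at 7.19, 5.98 and 6.44 FPKM in control, and at ZT0 at 6.54, 9.96 and 4.84 FPKM in IH and 6.23, 11.0 and 4.89 FPKM in control. The groups overlapped at each of these times. IH minus control was -0.10 over ZT4 and ZT8 (limma adjusted p = 0.751) and 0.01 over all time points (interval -0.30 to 0.31).

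Klf9, a Krüppel-like transcription factor that the hormone induces directly, was highest by day. In IH it was at 9.67, 15.6 and 19.5 FPKM at ZT0, 19.9, 22.8 and 16.1 at ZT4, 23.3, 17.2 and 16.9 at ZT8, 13.8, 7.42 and 13.0 at ZT12, 11.0, 14.4 and 10.5 at ZT16, and 13.0, 13.4 and 12.1 FPKM at ZT20. In control it was at 15.3, 12.7 and 15.4 FPKM at ZT0, 19.1, 26.4 and 20.1 at ZT4, 24.0, 23.2 and 17.6 at ZT8, 13.5, 1.37 and 12.8 at ZT12, 11.3, 10.0 and 13.8 at ZT16, and 16.5, 17.1 and 16.6 FPKM at ZT20. The 3 control mice at ZT20 lay above the 3 IH mice, a difference of -0.36 that did not pass the test (limma adjusted p = 1). The value of 1.37 FPKM belonged to control ZT12 replicate 2, the library that also held the lowest Nr3c1.

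Zbtb16, which encodes the zinc-finger repressor PLZF, was the gene of lowest level, where a difference of log2(FPKM + 1) understates the fold change. At ZT4 it was at 0.692, 0.428 and 0.372 FPKM in IH and at 1.93, 1.02 and 0.852 FPKM in control, all IH mice below all controls. At ZT8 it was at 1.95, 1.22 and 2.04 FPKM in IH and at 0.567, 0.925 and 0.404 FPKM in control, all IH mice above all controls. The differences were -0.58 at ZT4 (limma adjusted p = 0.404) and 0.74 at ZT8 (limma adjusted p = 1), and the condition by time point interaction had a limma adjusted p of 0.445. At the other 4 time points it ranged from 0.545 to 3.16 FPKM in IH and from 0.624 to 3.32 FPKM in control.

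Errfi1 encodes MIG6, an inhibitor of the EGF receptor that the hormone and growth factors both induce. It ranged from 272 to 408 FPKM in IH and from 138 to 447 FPKM in control. At ZT4 it was at 282, 357 and 344 FPKM in IH and at 138, 372 and 391 FPKM in control, and its lowest value came from control ZT4 replicate 1. The difference at ZT4 was 0.26, and without that mouse it was -0.23. With libraries weighted by their own spread the ZT4 difference was 0.67 (limma adjusted p = 0.0351), and it was not called in the main test.

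The second question was when in the day each gene peaked. A 24-h cosine was fitted in each condition, and a rhythm was called at a nominal P of 0.01 or less in limma's moderated F test over the 18 libraries of the condition. In control 4 of 9 genes were called, Fkbp5, Lpin1, Tsc22d3 and Ddit4, beside 20% of all genes tested, and in IH 5 of 9, the same 4 and Klf9, beside 39.9% of all genes. Both conditions called 4 of 9, beside 15.5% of all genes.

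The 4 genes called in both conditions had fitted maxima between 11.5 and 19.8 h. Differences in peak time between genes were not tested. Fkbp5 had its fitted maximum at 13.6 h in control (SE 0.461 h, n = 18, P = 6.55e-07) and at 11.6 h in IH (SE 0.791 h, P = 0.000583), a difference of -2.08 h, with log2 amplitudes of 0.88 (SE 0.11) and 0.71 (SE 0.15). Lpin1 peaked at 12.5 h in control (SE 0.746 h, n = 18, P = 0.000297) and 11.5 h in IH (SE 0.869 h, P = 0.00145), with log2 amplitudes of 1.31 and 1.15. These 2 genes thus peaked near the change from light to dark.

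Later in the night, Tsc22d3 peaked at 17.0 h in control (SE 0.697 h, n = 18, P = 0.000139) and 17.4 h in IH (SE 1.09 h, P = 0.0093), with log2 amplitudes of 0.98 and 0.63. Ddit4 peaked at 19.8 h in control (SE 0.804 h, n = 18, P = 0.000647) and 19.4 h in IH (SE 0.771 h, P = 0.000451), with log2 amplitudes of 0.73 and 0.76. The Tsc22d3 rhythm in IH was close to the threshold and was lost in 4 of 13 other ways of processing and in 10 of 18 fits without 1 IH library, with P up to 0.0474 and 0.0264. The 4 were no filter on low values (P = 0.0136, n = 18), quantile normalization (0.0119), an F test over the time points (0.0474) and leaving out the high-Saa1 libraries (0.0120), which in IH is replicate 2 at ZT0. The call was kept in 9 of the 13. The lowest limma P, 0.00035, came from the fit with the replicate number as a block, and with sample weights it was 0.0032. The single libraries without which the call was lost were replicate 2 at each of the 6 time points, replicate 1 at ZT4 and ZT8, and replicate 3 at ZT16 and ZT20.

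Klf9 was the gene with a daytime maximum, at 4.52 h in IH (SE 1.01 h, n = 18, P = 0.0054) and 2.64 h in control (SE 1.52 h, P = 0.0656). The control value turned on 1 library: without control ZT12 replicate 2 the control P was 0.00176, and without the 3 libraries of high Saa1 it was 0.00254. The IH call was lost without replicate 1 or 2 at ZT4 or replicate 1 or 3 at ZT16, with P up to 0.0180, and in 4 of 13 other ways of processing. These were median of ratios (P = 0.0119, n = 18), quantile normalization (0.0117), an F test over the time points (0.0214) and a spread shared by both conditions (0.111). Sgk1 (n = 18, P = 0.0198 in control and 0.145 in IH) and Zbtb16 (P = 0.0163 and 0.0745) were not called in either condition. The control P of Sgk1 was 0.00681 without control ZT4 replicate 3 and 0.00207 without control ZT8 replicate 3, and that of Zbtb16 was 0.00233 without control ZT4 replicate 1 and 0.00535 without control ZT16 replicate 1. Errfi1 was not called in either (n = 18, P = 0.645 and 0.0557).

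No gene of the 9 was shown to differ in its rhythm between the conditions. The test of the difference between the cosines called 0 of 9, also at a P under 0.05 without adjustment, beside 0% of all genes with and 4.91% without adjustment (limma). The smallest of these P values, for Fkbp5, was 0.0635 (limma adjusted p = 0.920). The condition by time point interaction called 0 of 9 beside 0.136% of all genes (limma), and 1 of 9, Fkbp5, without adjustment beside 14.2%.

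**Figure D3:**
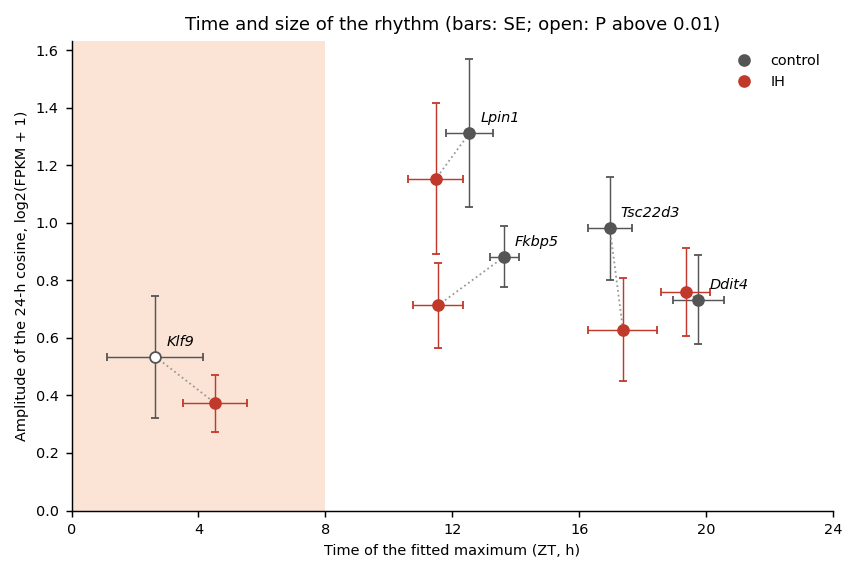
Amplitude of the fitted 24-h cosine on the log2(FPKM + 1) scale against the zeitgeber time of its maximum in hours, for the 5 genes called in at least 1 condition, with SE bars, open symbols where P was above 0.01, dotted lines joining the conditions of a gene, and the hours of hypoxia shaded. Fkbp5 and Lpin1 sit between 11.5 and 13.6 h, Tsc22d3 near 17 h, Ddit4 near 19 to 20 h and Klf9 inside the shaded hours.

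Genes around the receptor were compared in the same way, from 5 lists. Of 10 chaperones and cochaperones listed for the receptor, 5 were called lower in IH over ZT4 and ZT8, none was called higher and 5 were not called, beside 1.93% of all genes called lower, with a list median of -0.15 against 0.04 for all genes. The 5 called lower were Hsp90aa1 and Hsp90ab1, the inducible and the constitutive HSP90, Fkbp4, which encodes the cochaperone FKBP52 that opposes FKBP51 on the receptor, Hspa4, an HSP70 relative, and Stip1, the adaptor HOP between HSP70 and HSP90, which was added to the named genes after its value had been seen. Hsp90aa1 was at 30.3, 28.6 and 27.0 FPKM in IH at ZT4 and at 79.6, 77.0 and 80.8 FPKM in control, and at 19.9, 20.0 and 31.7 FPKM in IH at ZT8 and at 30.4, 26.7 and 27.5 FPKM in control. The ZT4 groups were far apart and the ZT8 groups overlapped.

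Hsp90aa1 fell by 0.85 over ZT4 and ZT8 on the log2 scale (SE 0.19, limma adjusted p = 0.0277) and by 1.44 at ZT4 (limma adjusted p = 0.0151). The other calls over ZT4 and ZT8 were -0.33 for Hsp90ab1 (SE 0.07, limma adjusted p = 0.0196), -0.35 for Fkbp4 (SE 0.08, limma adjusted p = 0.0309), -0.18 for Hspa4 (SE 0.05, limma adjusted p = 0.0361) and -0.42 for Stip1 (limma adjusted p = 0.0447), and at ZT4 alone Stip1 fell by 0.73 (limma adjusted p = 0.0347). Fkbp4 was at 47.1, 46.1 and 46.1 FPKM in IH and at 68.1, 75.8 and 65.4 FPKM in control at ZT4, where its counterpart Fkbp5 lay in the opposite order. At ZT4 alone Fkbp4 was not called (-0.57, limma adjusted p = 0.0563). At that hour IH lay wholly below control for 7.79% of all genes and wholly above for 26.7%. The count of 5 was 2 without the filter on low values, 0 at ZT8 alone and 1 with the spread taken from all 36 libraries. It was 0 without IH ZT4 replicate 2 or control ZT4 replicate 1, 1 without IH ZT4 replicate 1 or 3, IH ZT8 replicate 1 or 2 or control ZT4 replicate 3, and 3 without control ZT8 replicate 1 or 3. A rhythm was called for 6 of the 10 in control, 7 in IH and 6 in both, beside 20%, 39.9% and 15.5% of all genes. At ZT12 and ZT20 the list median lay above 0 instead, at 0.23 at each time against 0.03 for all genes, with none of the 10 called by limma and 7 and 3 of them at a P under 0.05 without adjustment, beside 24.6% and 4.74% of all genes. Hsp90aa1 was at 0.78 at ZT12 (limma adjusted p = 0.120), and Stip1 at 0.42 at ZT12 (limma adjusted p = 0.138) and 0.44 at ZT20 (limma adjusted p = 0.950). The condition by time point interaction of each of these genes had a limma adjusted p of 0.0846.

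Of 7 tested genes of steroid handling, 1 fell over ZT4 and ZT8 and 6 were not called, beside 1.93% of all genes called lower. H6pd, which encodes the enzyme that supplies NADPH for the reactivation of glucocorticoid by Hsd11b1, was at 76.3, 81.4 and 76.0 FPKM in IH at ZT4 and at 128, 113 and 117 FPKM in control, and at 70.0, 75.0 and 70.0 FPKM in IH at ZT8 and at 90.7, 85.0 and 84.9 FPKM in control. All 6 IH mice lay below all 6 controls. Taken hour by hour, IH lay wholly below control for 7.79% of all genes at ZT4 and 7.16% at ZT8. The share of all genes with all 6 IH mice below all 6 controls was not counted. H6pd fell by 0.44 on the log2 scale (SE 0.06, interval -0.58 to -0.30, limma adjusted p = 0.00716), a call that held in 11 of 13 other ways of processing and in 12 of 12 fits without 1 library. The 13 include leaving out the high-Saa1 libraries, which removed no library of ZT4 or ZT8. Hsd11b1 itself differed by 0.12 and Serpina6, the corticosteroid-binding globulin, by 0.26, and neither passed the test.

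Of 21 other glucocorticoid-responsive liver genes, none was called over ZT4 and ZT8, beside 7.98% of all genes, with a median of 0.02 against 0.04 for all genes. At ZT4 alone 1 rose, beside 0.885% of all genes called higher. It was Nfkbia, the inhibitor of NF-kappa-B, by 0.73 (limma adjusted p = 0.0438), and over ZT4 and ZT8 it differed by 0.44 (limma adjusted p = 0.0608). Outside these hours Nfkbia differed by 0.47 at ZT0, -0.37 at ZT12, -0.46 at ZT16 and 0.30 at ZT20, none of them called. Its condition by time point interaction had a limma adjusted p of 0.0846. The difference between its cosines had a limma P of 0.000229 (adjusted p = 0.707). Over ZT4 and ZT8, the gluconeogenic genes of this list were at 0.02 for Pck1 and 0.35 for G6pc, and the amino acid enzymes at 0.11 for Tat, 0.06 for Tdo2 and 0.32 for Got1, none of them called. G6pc was at 1.17 at ZT4 alone (limma adjusted p = 0.263). The clock gene Per1 was at 0.62 over both hours (limma adjusted p = 0.136). The lowest were the metallothioneins, at -1.46 for Mt2 and -0.95 for Mt1, neither called. The acute phase sum at ZT4 lay between 94.3 and 4388 FPKM in control and between 53.6 and 118 FPKM in IH. The part of the acute phase in these differences was not tested. A rhythm was called for 9 of the 21 in control, 7 in IH and 7 in both, beside 20%, 39.9% and 15.5% of all genes.

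Of 11 coregulators of the receptor none was called in the level comparisons, with differences over ZT4 and ZT8 of 0.12 for Crtc2 and 0.05 for Ncoa2, the 2 named by the rule, and rhythms were called for 0 in control and 5 in IH, beside 20% and 39.9% of all genes. Of 12 relatives of the genes studied, 1 rose over ZT4 and ZT8, beside 6.05% of all genes called higher. It was the early-response factor Klf10, which rose by 1.14 (SE 0.30, limma adjusted p = 0.0423), and by 1.77 at ZT4 (limma adjusted p = 0.0232). Klf10 was at 35.5, 26.3 and 15.0 FPKM in IH at ZT4 and at 3.16, 9.12 and 8.64 FPKM in control, and at 29.3, 21.5 and 18.3 FPKM in IH at ZT8 and at 15.3, 12.7 and 18.9 FPKM in control. The ZT4 groups did not overlap, beside 26.7% of all genes with IH wholly above control. The call of Klf10 over both hours was lost in 7 of 13 other ways of processing and in 10 of 12 fits without 1 library, all but those without IH ZT8 replicate 3 or control ZT8 replicate 3. Klf15 differed by 0.28 and was not called. Over all time points, no gene of the 5 lists was called by limma, beside 0.356% of all genes. Klf10 (n = 36 libraries, P = 0.0110) and Tsc22d2 (P = 0.0299) had a limma P under 0.05 without adjustment, beside 10.8% of all genes.

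**Figure D4:**
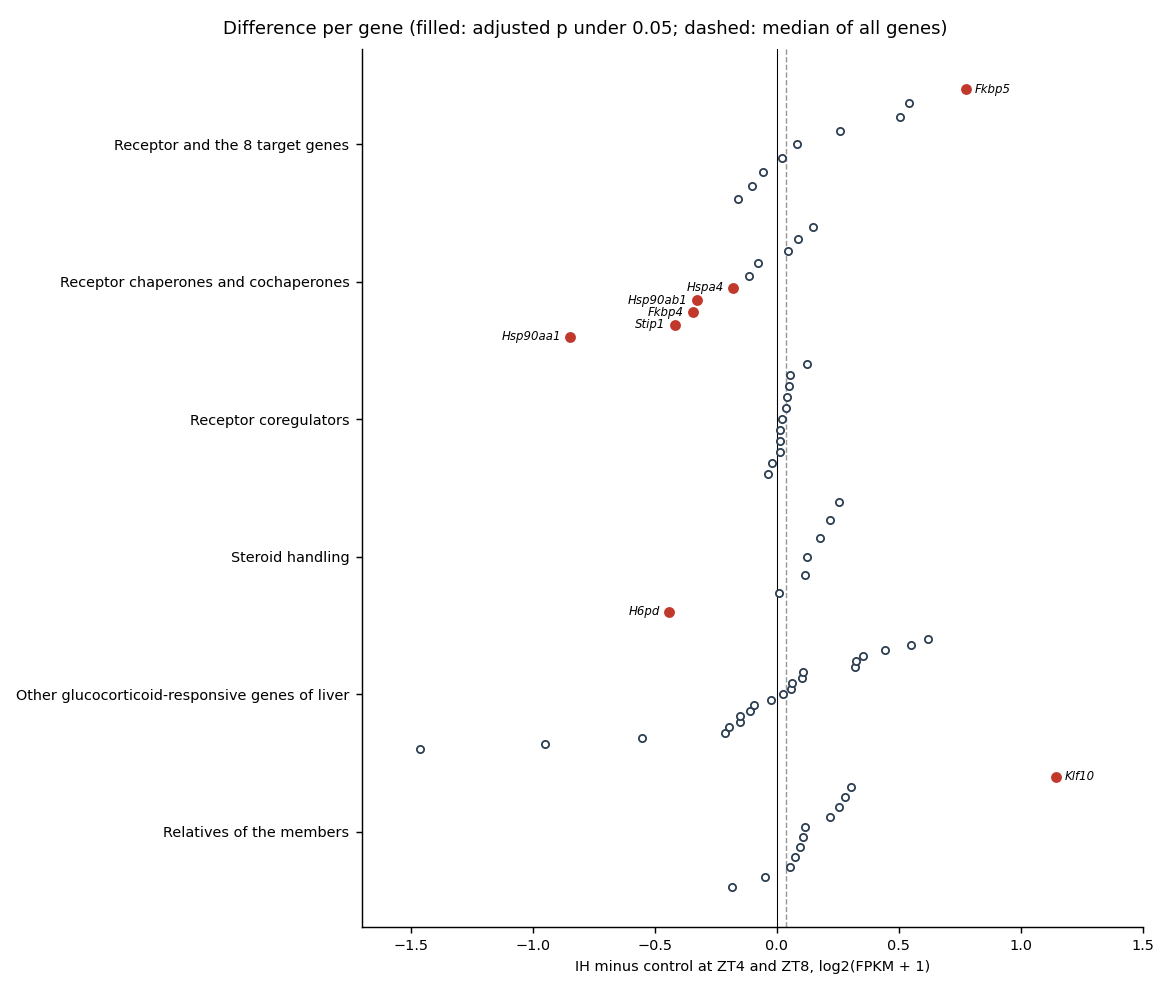
IH minus control over ZT4 and ZT8 on the log2(FPKM + 1) scale for each tested gene of the receptor group and of the 5 lists, 1 point per gene, filled where the adjusted p was under 0.05, with a dashed line at the median of all genes. The filled points are Fkbp5, Klf10, H6pd and the 5 chaperone genes, at 0.77, 1.14, -0.44 and -0.85 to -0.18.

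Genes whose group means closely followed those of a given gene were found by Pearson's correlation over the 12 group means, among 9813 genes that averaged 1 FPKM or more, as a description of shared time courses. For Fkbp5 these were Impdh2 (0.927), Snhg3 (0.920) and Hspa2 (0.918), for Tsc22d3 Pcp4l1 (0.923) and Smim10l1 (0.921), and for Nr3c1 Ugt2b1 (0.871), Dpyd (0.847) and Ugt2b38 (0.843).

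Mice of 1 group also differed among themselves, which allowed a comparison with the mean of each time point and condition taken out. The deviation of each mouse from the mean of its group on the log2(FPKM + 1) scale was correlated for all 36 pairs of the 9 genes, with 100000 permutations within groups, a comparison added after the data had been seen. Tsc22d3 and Sgk1 deviated together, with Pearson's r of 0.69 (permutation p = 0.00026, adjusted over the 36 pairs 0.0094) and Spearman's rho of 0.73 (permutation p = 0.00011, adjusted 0.004) over 36 mice. This was the single pair of 36 that passed. Without the 2 mice farthest from the median in Tsc22d3, r was 0.71, and without control ZT12 replicate 2 it was 0.73 (permutation p adjusted over the 36 pairs 0.0014). At ZT20 in IH, for example, the mouse with 132 FPKM of Tsc22d3 held 19.3 FPKM of Sgk1, and the mouse with 58.0 FPKM held 5.67 FPKM. Nr3c1 and Klf9 had r of 0.86 (permutation p adjusted 0.065), which was 0.43 without control ZT12 replicate 2. Values of 2 genes from 1 library share its depth and its RNA quality, whose part in these correlations was not tested. The permutation took the mice of a group as exchangeable. In IH, however, replicate 1 lay below its group mean in both genes at every time point. It deviated by -0.23 to -0.86 for Tsc22d3 and by -0.086 to -0.73 for Sgk1. In control, replicate 1 lay on both sides in both genes. The part of the replicate number in the correlation was not tested.

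**Figure D5:**
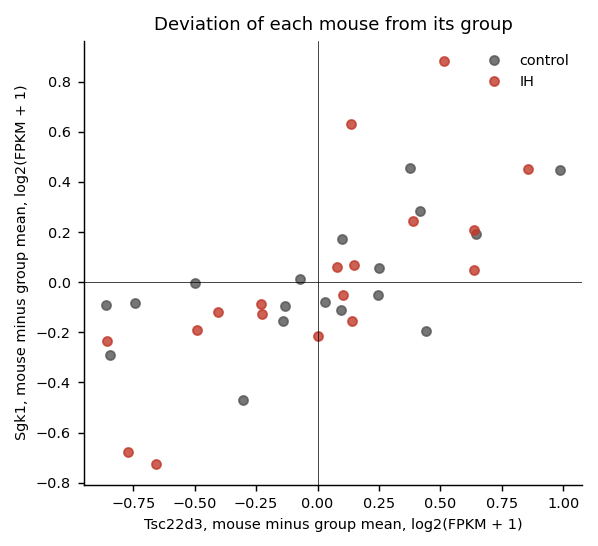
Deviation of each of the 36 mice from its group mean on the log2(FPKM + 1) scale, Tsc22d3 on the horizontal and Sgk1 on the vertical axis, with 1 point per mouse coloured by condition. Mice of both conditions rise together along the diagonal, with r of 0.69.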

How the data were processed

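The authors took poly(A) RNA from mouse liver, made stranded libraries, sequenced paired ends on a NovaSeq, aligned reads to mm10 (TopHat2 2.1.1, per the submitters' processing notes) and deposited FPKM per gene and replicate from Cufflinks 2.2.1, in 1 table per condition. Both tables have the same column names, so their condition comes from the table names and the study's own plots. The gene annotation used upstream is not given in the sources used here. The tables hold 24883 rows and 24346 symbols, and 280 symbols on several rows were left out of the main test. No counts were used. Steps in low FPKM values (1074 genes, 97.4% of values within 0.15 of a whole number of steps) put the relative depth of the libraries between 0.779 and 1.31, a 1.69-fold range, and the absolute depth is unknown, so no counting interval is given.

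Values were tested as log2(FPKM + 1) with limma 3.58.1 in R 4.3.3 (empirical Bayes with a trend) for genes that averaged 0.1 FPKM or more, and p-values were adjusted by Benjamini-Hochberg over all 13215 genes, with calls at an adjusted p under 0.05. Differences over ZT4 and ZT8 and over all time points had the time point as a factor, single time points came from a fit of all 36 libraries, and rhythms were 24-h cosines within a condition, called at a nominal P of 0.01. Fitted fold changes of low genes are understated on this scale. Tests were checked on simulated data. All 9 genes are described, and list genes are named by a rule (in each list up to 4 called genes by smallest P, or else the 2 of smallest P). Pck1, G6pc, Tat, Tdo2, Got1, Mt1, Mt2, Hsd11b1, Serpina6, Klf15, Tsc22d2 and Stip1 were named after their values had been seen. One gene that falls under the naming rule is not reported here. The members and lists were chosen with earlier results of these data known. Alternatives were another pseudocount, filters, scalings, a replicate block, an F test, single hours, no time factor, summed rows and left-out libraries, with sample weights and leaving out ZT12 added after seeing the data. Leaving out the high-Saa1 libraries removed no library of ZT4 or ZT8. In every tally over those 2 hours this setting thus repeats the main test. Figures used Python 3.11.15 and matplotlib 3.10.9.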

Additional observations from a re-analysis of the deposited data

Results flagged for a closer look

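Fkbp5 was flagged because all IH mice lay on one side of all control mice at 3 time points, and not on the same side. The IH mice lay above at ZT4 (1.01 on the log2(FPKM + 1) scale), beside 26.7% of all genes, and at ZT12 (0.49), beside 6.34%. They lay below at ZT16 (-0.34), beside 3.84% of all genes. The test of the difference between time points, the condition by time point interaction, had a limma adjusted p of 0.260 and did not pass. Zbtb16 was flagged in the same way within the hours of hypoxia. All IH mice lay below the controls at ZT4 (-0.58), beside 7.79% of all genes, and above them at ZT8 (0.74), beside 11%. The interaction of Zbtb16 had a limma adjusted p of 0.445. The share of all genes with groups apart in both directions was not counted.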

How the results depend on the processing

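Of the 9 genes, 1 was called over ZT4 and ZT8, and 0 were called without the filter on low values, with FPKM scaled to a common sum, with median of ratios, quantile normalization, summed rows, ZT4 alone, ZT8 alone or sample weights, where the limma adjusted p of Fkbp5 was 0.0962, 0.0616, 0.0623, 0.0594, 0.05001, 0.0584, 0.550 and 0.0506. Same-numbered IH and control mice deviated together by r of 0.054 on average over 18 pairs, so a shared number was not taken as a pairing, and with the replicate block the count was 0 (Fkbp5 adjusted p = 0.0669), the chaperone count 3 and the control rhythm count 5, while no call of rhythm was lost. The single call by time point became 0 without the filter, with a common sum or median of ratios and 2 with sample weights. Leaving out 1 library gave 0 to 1 for both counts. The IH rhythm count of 5 was 3 with quantile normalization, 2 with an F test over the time points and 3 to 5 without 1 library (3 without IH ZT4 replicate 1 or 2 or IH ZT16 replicate 3). The chaperone count of 5 was 2 without the filter, 0 at ZT8 alone, 1 with the spread of all 36 libraries and 0 to 5 without 1 library. The cause of these shifts was not tested. Fits of single hours held fewer samples, and the part of this was not tested either.

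Differences near 0, none of them called, changed sign. With median of ratios, quantile normalization and without the high-Saa1 libraries, the difference over all time points was -0.038, -0.035 and -0.064 for Nr3c1 and -0.016, -0.0086 and -0.026 for Errfi1, and with sample weights it was -0.054 and -0.020. For Ddit4 it was -0.035 and -0.030 with these scalings, for Zbtb16 -0.012 without the high-Saa1 libraries, for Klf9 0.017 with a pseudocount of 0.1 and 0.00030 with a common sum, and without ZT12 -0.033 for Nr3c1 and -0.051 for Ddit4. Over ZT4 and ZT8, Errfi1 was at -0.038 and -0.082 with these scalings and -0.22 at ZT8 alone, Zbtb16 at -0.58 at ZT4 alone and -0.023 with weights, and Ddit4 at 0.15 at ZT8 alone. Without 1 library, the ranges over all time points were -0.15 to 0.034 for Klf9, -0.056 to 0.021 for Nr3c1, -0.050 to 0.075 for Ddit4, -0.044 to 0.059 for Errfi1 and -0.0084 to 0.10 for Zbtb16, over ZT4 and ZT8 -0.22 to 0.11 for Errfi1, -0.035 to 0.25 for Zbtb16 and -0.24 to 0.013 for Ddit4, and -0.23 to 0.52 for Errfi1 at ZT4. Of all genes, 799 of 1054 calls over ZT4 and ZT8 were higher in IH, against 527 of 960 with median of ratios, 522 of 950 with quantile normalization and 491 of 741 with a common sum. The count was 614 without the filter, 0 at ZT8 alone and 269 with the spread of all 36 libraries, and over all time points it was 47, or 27 with a common sum, 183 without the high-Saa1 libraries and 0 without the time factor.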
